A study of Mus musculus with 8 samples.

Results

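The broad ASH2L domains described here were stretches of at least 2000 bp in which ASH2L sites followed each other closely in mouse fibroblast chromatin. They were chosen by the positions in a single list of ASH2L sites: neighbouring sites on the assembled nuclear chromosomes were joined where the gap between them was at most 1000 bp, and joined regions of 2000 bp or more from the first to the last base were kept. The HoxA and HoxD clusters were left out. The rule kept 105 domains, which held 388 of the 6428 sites on the 21 assembled nuclear chromosomes, or 6.04%. The sites formed 5608 joined regions in all, of which 19 lay in the HoxA and HoxD clusters and 5589 did not. Because the widths and gaps of the sites selected the domains, their span, site number and coverage are descriptions, and no test was made of them.

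The list came from 8 ChIP-seq libraries in 4 groups of 2 replicates, namely ASH2L precipitates and inputs from untreated cells and from cells given the degrader dTAG for 1 h. All groups were iMEF cells (mouse embryo fibroblasts made immortal), whose endogenous Ash2l gene had lost exon 4 after 4-hydroxytamoxifen. All of them carried human ASH2L fused at its N-terminus to FKBP12F36V, the tag that dTAG brings to a ubiquitin ligase, which a lentivirus had introduced, and were grown up from individual clones. Clonal origin and an introduced gene limit these cells as a model of fibroblasts, and site positions cannot check the cell type by expression. The list gives positions pooled over all samples without a signal per sample, so it shows neither the depth of the libraries nor a replicate error, and the change between untreated and dTAG-treated cells was not analysed here.

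ASH2L is a shared core subunit of the KMT2 complexes, the enzymes that methylate lysine 4 of histone H3 at promoters and enhancers. The trimethylated form marks promoters, and broad stretches of it are known at genes that define a cell type. CpG islands are stretches rich in unmethylated CpG dinucleotides that overlap most promoters, and subunits of some KMT2 complexes bind such DNA through CXXC domains. Fibroblasts are mesenchymal cells, whose development involves transcription factors of the T-box, homeobox, forkhead and helix-loop-helix families.

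The sequences inside the sites of the domains ranged from CpG-dense to nearly CpG-free. The windows below show this range. For each domain the 200-bp windows with the most and the fewest CpGs within its sites were found, without windows that touch untranslated exons. All are given on the plus strand of mm10 (GRCm38.p6), with CpGs in capitals. At Tbx15, a T-box factor of skeletal mesenchyme and the widest domain, the window with the most CpGs (chr3:99253950-99254149) touched coding exon sequence, lay entirely in a CpG island and held 19 CpGs. The window with the fewest (chr3:99251589-99251788) was in an intron and held 0.
Tbx15, most CpGs: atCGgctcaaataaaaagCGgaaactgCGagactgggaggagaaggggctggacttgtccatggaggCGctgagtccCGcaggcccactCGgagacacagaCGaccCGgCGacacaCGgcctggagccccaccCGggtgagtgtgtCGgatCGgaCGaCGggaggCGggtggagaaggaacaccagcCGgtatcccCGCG
Tbx15, fewest CpGs: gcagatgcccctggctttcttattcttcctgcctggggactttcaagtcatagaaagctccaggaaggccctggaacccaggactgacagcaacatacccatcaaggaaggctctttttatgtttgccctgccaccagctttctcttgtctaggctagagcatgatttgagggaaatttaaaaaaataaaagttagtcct

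At Ebf3, a helix-loop-helix factor on the minus strand, the windows held 29 CpGs (chr7:137313638-137313837, touching a coding exon) and 1 CpG (chr7:137308359-137308558, intronic, centred 5987 bp downstream of the TSS).
Ebf3, most CpGs: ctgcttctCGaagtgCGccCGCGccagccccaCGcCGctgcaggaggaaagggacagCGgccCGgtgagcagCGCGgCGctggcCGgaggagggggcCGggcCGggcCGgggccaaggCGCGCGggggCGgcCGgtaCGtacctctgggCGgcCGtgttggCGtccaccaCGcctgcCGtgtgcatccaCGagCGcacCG
Ebf3, fewest CpGs: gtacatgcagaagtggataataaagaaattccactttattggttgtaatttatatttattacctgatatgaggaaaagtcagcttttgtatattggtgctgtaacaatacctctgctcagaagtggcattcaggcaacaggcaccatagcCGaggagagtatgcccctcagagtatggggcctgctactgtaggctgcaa

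The next sequences contrast a CpG-dense domain with a domain that has no CpG island. Hnrnpa0, which codes for an RNA-binding protein, had the domain of the highest CpG density, and its window with the most CpGs (chr13:58127575-58127774, touching a coding exon) held 41. Mllt3, which codes for a subunit of the super elongation complex, had the widest domain without a CpG island, and its window with the most CpGs (chr4:88017864-88018063, intronic) held 9.
Hnrnpa0, most CpGs: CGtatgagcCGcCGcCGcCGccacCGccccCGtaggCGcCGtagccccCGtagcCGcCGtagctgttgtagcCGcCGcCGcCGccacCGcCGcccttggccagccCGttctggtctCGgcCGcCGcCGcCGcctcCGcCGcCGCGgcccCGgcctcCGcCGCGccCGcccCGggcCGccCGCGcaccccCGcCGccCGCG
Mllt3, most CpGs: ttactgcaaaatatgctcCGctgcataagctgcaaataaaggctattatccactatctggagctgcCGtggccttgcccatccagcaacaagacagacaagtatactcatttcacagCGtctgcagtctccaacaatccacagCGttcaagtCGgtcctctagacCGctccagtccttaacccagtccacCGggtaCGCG

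Over the 97 domains with such windows, the window with the most CpGs held a median of 27 and ranged from 3 to 46. The window with the fewest held a median of 1 and ranged from 0 to 12. It held no CpG in 30 domains and at most 1 in 53, while the richest window held 10 or more in 82.

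The domains had a median span of 3122 bp, with quartiles of 2362 and 4859 bp and a highest span of 12296 bp. They held a median of 4 sites, from 1 to 10, and the sites covered a median of 76.3% of the span. In 6 domains a single site made up the whole span, at Erbin, Hmga2, Tbx18, 2 of the 3 domains of Tbx15 and downstream of Cdkn1b. A site of 2000 bp or more was present in 35 domains. The domains held 13.5% of all bases in sites on these chromosomes, with 303.7 kb in sites and 97.3 kb in gaps. Just above the limit of 2000 bp lay domains of 2000 bp (chr2:18765644-18767643), 2008 bp (chr7:73607144-73609151, at the noncoding gene Gm44734) and 2030 bp (chr7:73615127-73617156), none of them with a protein-coding TSS inside. Regions just below it included those of 1984 bp (chr3:86758161-86760144) and 1951 bp (chr11:54908404-54910354).

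The 10 widest domains all held the transcription start site (TSS) of a protein-coding gene, and 7 of them that of a gene in the transcription factor lists. The domain at Tbx15 (chr3:99251517-99263812) spanned 12296 bp with 9 sites, of which the widest measured 3963 bp, and held 2575 bp of CpG island. The domain at Mecom, a zinc finger regulator of blood stem cells (chr3:30505441-30516076), spanned 10636 bp with 7 sites and held 5217 bp of island. Islands made up 20.9% of the span at Tbx15, in 6 islands, and 49.1% at Mecom, in 7 islands.

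At Ebf3 (chr7:137305058-137314501) 4 sites spanned 9444 bp, and a single site of 6166 bp ran from the TSS into the gene. It was the widest site of all 105 domains. Its domain held 3290 bp of island in 2 islands. The domain shared by Mab21l1, a developmental regulator of the eye, and Nbea, which codes for the vesicle-trafficking protein neurobeachin (chr3:55779941-55788209), spanned 8269 bp with 6 sites and 3481 bp of island. The one at Bahcc1, a chromatin protein with a BAH domain (chr11:120233322-120241503), spanned 8182 bp with 6 sites and held 5598 bp of island, the most of all 105 domains.

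Others of the 10 widest domains were at Prrx1, Cdkn2c, Foxc1 and Foxc2. Prrx1, a homeobox factor of limb mesenchyme (chr1:163308250-163314726), had 6 sites over 6477 bp and 1402 bp of island. Cdkn2c, an inhibitor of cyclin-dependent kinases (chr4:109661150-109667306), had 4 sites over 6157 bp and 1703 bp of island. The forkhead factors Foxc1 (chr13:31806318-31812400) and Foxc2 (chr8:121115110-121121168), both of vascular and eye mesenchyme, had spans of 6083 and 6059 bp with 3781 and 3080 bp of island. Prrx1 and Tbx15 had the lowest island shares of these 10, at 21.6% and 20.9% of the span, and Bahcc1 and Foxc1 the highest, at 68.4% and 62.2%.

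**Figure D1:**
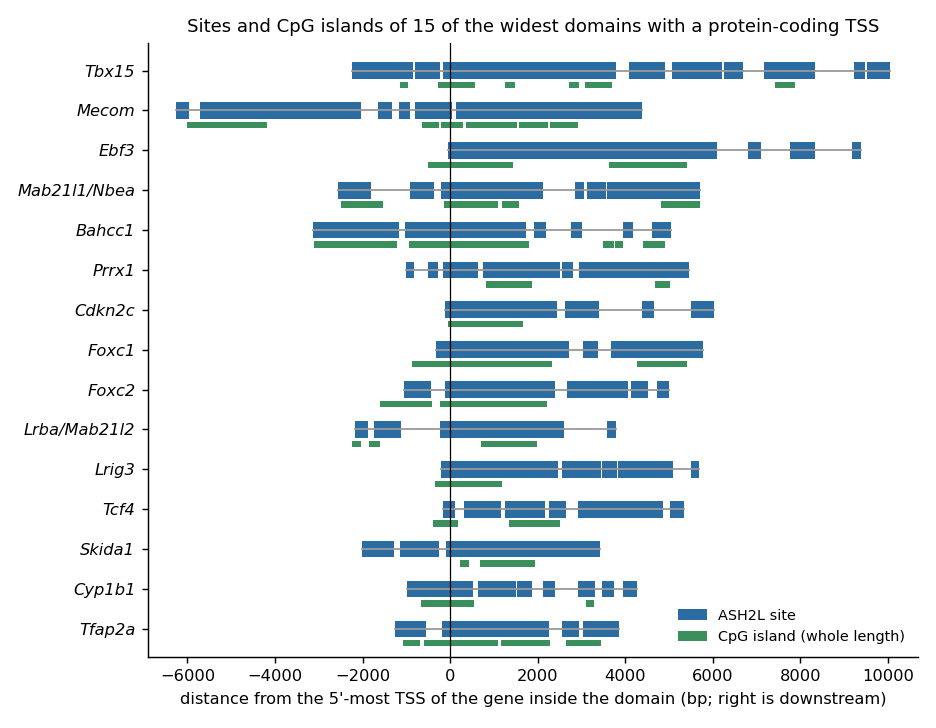
Sites (blue) and CpG islands at their whole length (green) of 15 of the widest domains with a protein-coding TSS, by distance in bp from the 5′-most TSS of the gene inside the domain, with downstream to the right. Tbx15 reached 10052 bp downstream and 2243 bp upstream, and the sites continued past the islands in most of these domains.

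Span and number of sites had a Spearman correlation of 0.64 over the 105 domains, and both grow as sites are joined. The 10 sites at Malat1, an abundant nuclear noncoding RNA (chr19:5796341-5802346), were the most in a domain. Their widths ranged from 200 to 863 bp, they covered 52.7% of a span of 6006 bp, and the domain held 254 bp of island. Tbx15 followed with 9 sites and Tnrc18, which codes for a BAH-domain protein, with 8. Cyp1b1 (a cytochrome P450), Mecom and Pcdh7 (a protocadherin) had 7 each. By island bases the order was Bahcc1 with 5598 bp, Mecom with 5217 bp, the noncoding gene 2810410L24Rik with 4120 bp, Tfap2a with 4016 bp and Pcdh7 with 3823 bp. The domain at 2810410L24Rik (chr11:120184831-120189981) spanned 5151 bp with 3 sites.

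Genes at the domains were compared with those at all joined regions outside the HoxA and HoxD clusters. A protein-coding TSS lay inside 77 of the 105 domains, a share of 73.3% (Wilson 95% confidence interval 64.2 to 80.9%). The share was 31.5% over all 5589 joined regions and 63.1% (interval 56.9 to 68.8%) over the 249 regions of 1000 to under 2000 bp. These intervals cover counting error only. A longer region holds more TSSs by its length alone, and per kb the domains held 0.791 annotated TSSs against 1.99 in the regions of 1000 to under 2000 bp and 2.75 in those under 1000 bp. The share of domains with a TSS was above that of all joined regions and overlapped in its interval with that of the next shorter class. With 3000 bp or more it was 86.2%, and with 2000 to under 3000 bp it was 57.4%.

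The TSS of a gene in the lists of transcription factor families lay inside 34 of the 105 domains, a share of 32.4% (interval 24.2 to 41.8%). The same share was 1.79% over all joined regions, 5.62% (interval 3.38 to 9.22%) for regions of 1000 to under 2000 bp and 0.993% for those under 1000 bp. Among regions with a protein-coding TSS alone, 44.2% of the domains held a listed factor, against 8.92% for 1000 to under 2000 bp and 3.41% under 1000 bp. The lists hold 779 genes or 3.56% of the 21911 protein-coding gene symbols. Of these 779, 31 were at a domain and 92 at a joined region of any span. A gene is counted as at a region where its TSS lies between the first and the last base, gaps included. Of all protein-coding genes, 80 (0.365%) were at a domain and 1890 (8.63%) at a joined region of any span. The lists were made by name and also take in DNA-binding proteins and co-regulators such as Arid1b, Arid2, Hmga2, Runx1t1 and Zfpm2. They were drawn up with earlier results of these data known, so the share is a description and not independent evidence.

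**Figure D2:**
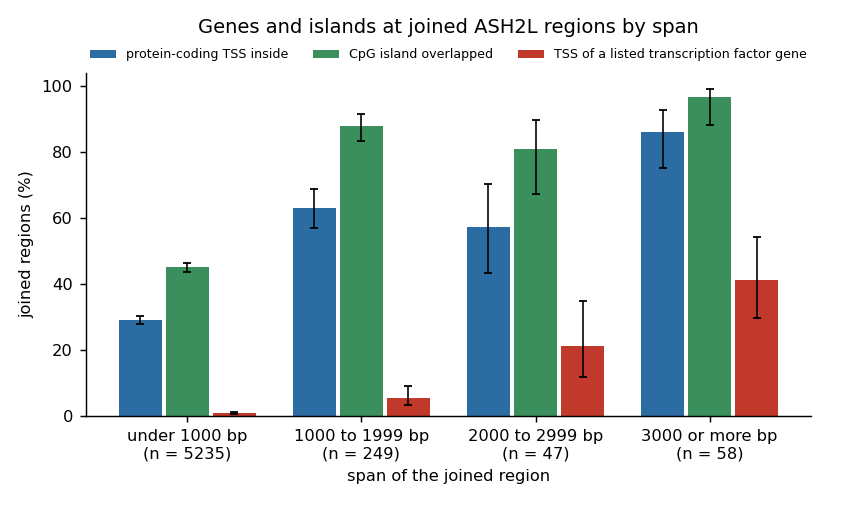
Share of joined regions (%) with a protein-coding TSS inside, overlapping a CpG island, and with the TSS of a gene in the transcription factor lists, by span, with the number of regions under each class and Wilson 95% intervals as bars. Listed factor genes lay in 0.993% of regions under 1000 bp and in 41.4% of those of 3000 bp or more.

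The homeobox list had 7 of its 208 genes at domains. Besides Prrx1 they included Zfhx4 (4669 bp, 5 sites), Hlx (3991 bp, 2 sites), Tshz1 (3100 bp, 5 sites) and Cux1 (2758 bp, 4 sites). Hlx is a factor of gut mesenchyme. A further 8 homeobox genes had their TSS in a shorter region, so that 15 of 208 were at any joined region outside the Hox clusters left out here. These counts were 3.4% of the list at domains and 7.21% at any joined region. Of all protein-coding genes the shares were 0.365% and 8.63%, so the homeobox share at any region was not above that of all genes.

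Of the 44 forkhead genes 3 were at domains, with 2 domains at Foxp1 (4585 and 3801 bp) beside those at Foxc1 and Foxc2. The T-box list had 2 of 17, Tbx15 and Tbx18, the latter a factor of epicardium and ureter mesenchyme with a single site of 2079 bp. Of the 104 helix-loop-helix genes 4 were at domains, namely Ebf3, Tcf4 with 2 domains (5494 and 2238 bp), Bhlhe22 (4909 bp) and Twist2 (2357 bp). Twist2 acts in dermal mesenchyme and Tcf4 is a broadly expressed partner of other factors of its family. Of the 24 genes in the SOX and TCF list Tcf7l2, an effector of Wnt signalling, was the one with a TSS inside a joined region, and its domain spanned 4942 bp with 6 sites. Its TSS lay in a gap between sites. Of the 44 nuclear receptors Nr2f2, an orphan receptor of mesenchyme and veins, was at a domain (4652 bp, 4 sites). The shares at domains were 6.82% (forkhead), 11.8% (T-box), 3.85% (helix-loop-helix), 4.17% (SOX and TCF) and 2.27% (nuclear receptors). Of all protein-coding genes 0.365% were at a domain. At any joined region the shares of these lists were 13.6%, 17.6%, 6.73%, 4.17% and 9.09%, against 8.63% of all protein-coding genes.

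The list of developmental zinc finger genes, made by name, had 7 of 167 at domains. They were Mecom, Trps1 (5022 bp), Runx1t1 (4273 bp), Tshz1, Runx2 (3050 bp), Zfpm2 (2735 bp) and Bcl6 (2597 bp). Runx2, a Runt-domain factor without zinc fingers that the list also takes in, is the master regulator of bone formation. Trps1 acts in cartilage and hair. The list of other DNA-binding genes had 7 of 124 at domains, with Tfap2a (5120 bp), Arid2 (4112 bp), Arid1b (3122 bp), Nfkb1 (2699 bp), Hmga2 (2437 bp), Smad7 (2263 bp) and Nfix (2103 bp). Tfap2a is a factor of neural crest and skin, Nfkb1 an NF-kB subunit, and Smad7 an inhibitor of TGF-beta signalling. At domains the shares were 4.19% of the zinc finger list and 5.6% of the other DNA-binding list, against 0.365% of all protein-coding genes. At any joined region they were 18% and 16.9%, against 8.63% of all protein-coding genes. Of the 50 basic leucine zipper genes 0 were at a domain and 6 at a shorter region, and at 0.365% of all protein-coding genes a list of this size would hold less than 1.

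Genes of signalling pathways were at 5 domains. They were the Sprouty-type inhibitors of receptor tyrosine kinase signalling Spry2 (3418 bp, 5 sites) and Spred1 (3398 bp, 5 sites), the Wnt agonist Rspo2 (3308 bp, 4 sites), the activin subunit gene Inhba (2408 bp, 4 sites) and the BMP receptor Bmpr1a (2093 bp, 2 sites). These were 5 of the 262 genes in the list (1.91%, against 0.365% of all protein-coding genes), of which 18 (6.87%) were at any joined region. The chromatin list had 3 of 140 genes at domains (2.14%) and 28 (20%) at any region, the former being the SWI/SNF subunits Arid1b and Arid2 and the DOT1L partner Mllt10 (4503 bp, 4 sites). Adhesion and matrix genes were at 2 domains, Pcdh7 (5120 bp, 7 sites) and the metalloprotease gene Adamts6 (3080 bp, 4 sites), with 10 of 342 at any region. These were 0.585% and 2.92% of the list, against 0.365% and 8.63% of all protein-coding genes, so the share at domains was near that of all genes.

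Genes with general functions were counted in the same way. None of the 269 genes for ribosomal proteins, translation factors and proteasome subunits was at a domain, although 104 of them (38.7%) had a TSS in a joined region of any span. None of the 60 histone genes was at a domain, with 5 (8.33%) at a region of any span. With 0.365% of all protein-coding genes at domains, a count of 0 in lists of these sizes is near that share. The list of fibroblast regulators and markers had 13 of 50 genes at domains (26%) and 18 at any joined region (36%). Of all protein-coding genes the shares were 0.365% and 8.63%. All 13 are also in the transcription factor lists, and the list was made with results of these data known.

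Span and island length were ordered by the kind of gene in their medians, without a test. The 34 domains with a listed factor gene had a median span of 4192.5 bp and a median of 2110 bp of island. The 43 other domains with a protein-coding TSS had medians of 3308 and 1703 bp, and the 28 without one had medians of 2425 and 526.5 bp. The ranges overlapped widely, since the widest domain without a protein-coding TSS, that of Malat1, spanned 6006 bp and the narrowest with a listed factor, that of Tbx18, 2079 bp.

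The middle of the domain lay in an intron in 54 of the 105 domains, in an untranslated region in 19, in a coding exon in 14, in a noncoding gene in 9 and between genes in 9. Coding exons made up a median of 3.08% of the span and at most 54.9%. The domains lay mostly downstream of the TSS. Over the 71 domains with the TSSs of a single protein-coding gene, the reach from the 5′-most TSS inside was a median of 2778 bp downstream and 579 bp upstream, and 63 of them (88.7%) reached farther downstream. The share was close to this in regions of 1000 to under 2000 bp, at 85.4% of 144, and was 75.6% in those under 1000 bp. The choice of the 5′-most TSS favours the downstream side. From the 3′-most TSS inside, 44 of 71 (62.0%) reached farther downstream, with medians of 1900 and 1177 bp, against 52.1% of the 144 regions of 1000 to under 2000 bp. Where only 1 TSS lay inside, 19 of 21 domains (90.5%) did, and this measure gave 25 of 34 (73.5%) for regions of 1000 to under 2000 bp and 348 of 523 (66.5%) for those under 1000 bp. Ebf3 reached 9387 bp downstream and 56 bp upstream, Runx2 3043 and 6 bp, and Tbx18 2045 and 33 bp. Mecom was the exception among the 10 widest, with 6254 bp upstream and 4381 bp downstream of its 5′-most TSS inside.

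**Figure D3:**
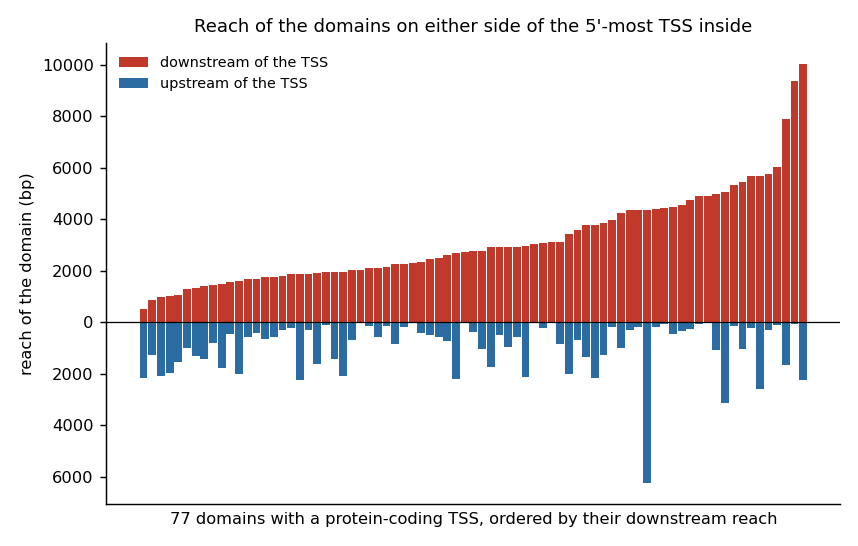
Reach in bp of the 77 domains with a protein-coding TSS downstream (red, up) and upstream (blue, down) of the 5′-most TSS of the gene inside, ordered by the downstream reach. In 67 of the 77 domains the downstream reach was the longer.

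No protein-coding TSS lay inside 28 domains. In 14 of these the domain overlapped a protein-coding gene, and one of the Nr2f2 domains ran past the 3′ end of its gene. In 7 of the 14 it began within 500 bp downstream of an annotated TSS, at Thbs1 (79 bp), one of the Tbx15 domains (249 bp), Smc4 (273 bp), Nr2f2 (274 bp), Tbx3 (276 bp), Zfhx3 (467 bp) and Pax9 (470 bp). Thbs1 codes for the matrix protein thrombospondin, Smc4 for a condensin subunit, and Tbx3, Zfhx3 and Pax9 for developmental transcription factors, of which Pax9 had a domain of 4692 bp with 2018 bp of island. These domains began after an annotated start of the gene without covering it, and Tbx3, Zfhx3 and Pax9 are therefore not among the 31 listed genes at domains.

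The other 7 were farther from a protein-coding TSS. The domain in Zadh2 was 846 bp from the nearest protein-coding TSS, that in Spp1, which codes for osteopontin, 1876 bp, a Tbx15 domain 3470 bp, 2 domains in Nfix 4356 and 8511 bp, that in Cdc27, which codes for a subunit of the anaphase-promoting complex, 7340 bp and that in Mllt3 14626 bp. The Mllt3 domain (chr4:88013966-88018187) held 5 sites over 4222 bp.

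Of the 28 domains without a protein-coding TSS, 10 overlapped noncoding genes and no protein-coding gene. Those at Malat1, Neat1 (2415 bp), 2 domains at Mir99ahg (2435 and 2204 bp), 2810410L24Rik, 9630013D21Rik (3153 bp), Gm4258 (2231 bp) and Gm44734 held the TSS of a noncoding gene, as did the one that overlaps 2700069I18Rik (2362 bp) and holds the TSS of Gm10748. The one in Lncppara (2093 bp) held none. Neat1 is the scaffold RNA of paraspeckles, and Mir99ahg hosts microRNAs. The remaining 4 domains were between genes, 5859 bp from Cdkn1b (2257 bp), 66560 bp from Spag6 (2000 bp), 73297 bp from Chd2 (2030 bp) and 107328 bp from Cpm (2483 bp). Counting the TSSs of all annotated genes, 87 of the 105 domains held a TSS. Among them was the Tbx3 domain, which held the TSS of the noncoding gene Tbx3os1.

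Several genes had more than 1 domain. In 9 places, domains followed each other at distances of at most 10 kb, and 19 domains were in such chains. The longest was at Tbx15, where 3 domains with 11 sites filled 17317 of 23183 bp (chr3:99240630-99263812), with 4640 and 1226 bp between them. The next began at Skida1 and ended at Mllt10 (14061 bp, 7 sites), at Nr2f2 (11694 bp, 10 sites) and at 9630013D21Rik and Cdkn2c (11109 bp, 6 sites). Others were at Cdkn1b, an inhibitor of cyclin-dependent kinases, Nfix, Tshz1 and Zadh2, Zfhx4, and near Chd2. Foxp1, Mecom and Tcf4 each had 2 domains that were farther apart. At Mecom these spanned 10636 and 4543 bp and held 5217 and 675 bp of island, and at Foxp1 4585 and 3801 bp with 1108 and 3282 bp. The wider domain of a gene was thus not always the one with more island.

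CpG islands overlapped 94 of the 105 domains, or 89.5% (interval 82.2 to 94.1%). An island here is a sequence of 200 bp or longer that exceeds 50% GC and holds over 0.6 times the CpGs its base composition predicts. These islands were computed from the sequence and are not the island set of the study, so their shares and lengths are not comparable with values from that set. The share was 47.9% over all joined regions and 88.0% for those of 1000 to under 2000 bp. The intervals of the domains and of the next shorter class (83.3 to 91.4%) overlapped. The domains held a median of 1653 bp of island, with quartiles of 1049 and 2234 bp, against 961 bp in regions of 1000 to under 2000 bp. As a share of the span the order was reversed, with a median of 45.4% in the domains and 70.7% in regions of 1000 to under 2000 bp. Islands took more than 50% of the span in 47 domains and less than 10% in 15. Across the 105 domains the Spearman correlation of span with island bases was 0.45 and with the island share of the span -0.13. The span limits the island bases it can hold, and domains of 1 gene share their sequence context.

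**Figure D4:**
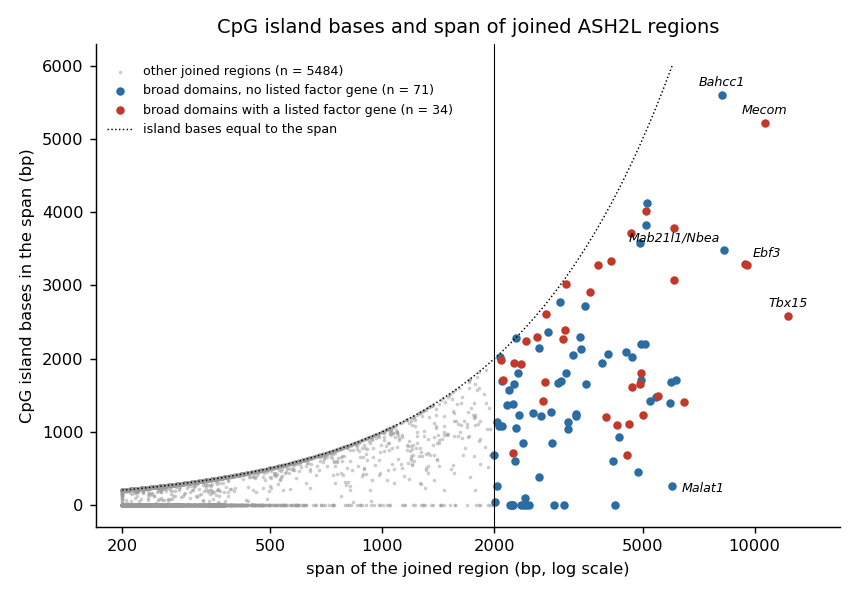
CpG island bases in bp against the span in bp (log scale) of all joined regions outside the HoxA and HoxD clusters, with 5484 other regions in grey, 71 domains without and 34 with a listed factor gene in blue and red. On the dotted line the island fills the span, and no region can lie above it because island bases are counted within the span. Tbx15, the widest domain, held 2575 bp of island in 12296 bp.

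A long CpG island alone did not go with a domain in most cases. Outside the Hox clusters the genome held 671 islands of 2000 bp or more, of which 198 (29.5%) overlapped a site and 33 (4.92%) a domain. Of the 81 islands of 3000 bp or more, 25 overlapped a site and 5 a domain. Conversely, 33 of the 105 domains touched an island of 2000 bp or more. The shares with a domain were 0.569% for islands of 1000 to under 1500 bp and 1.47% for 1500 to under 2000 bp. A longer island also offers more bases to overlap.

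The 11 domains without an island were at Mllt3, Adamts6, Spp1, Inhba, 2700069I18Rik, Sgk1, Gm4258, Cdc27, both Mir99ahg domains and 107328 bp from Cpm. Of these, Adamts6, Inhba and Sgk1, which codes for a stress-induced kinase, held a protein-coding TSS, and the other 8 did not. Their spans ranged from 2204 to 4222 bp, their widest site was 1549 bp, and the sites covered a median of 48.6% of the span, against 77.8% in domains with an island. Their CpG density ranged from 0.54 (Cdc27) to 2.70 CpG per 100 bp (Inhba), with a median of 1.69, against 5.11 in domains with an island. Mir99ahg, at 74.7% and 85.2% in its domains, and Gm4258, at 67.0%, were the best covered of them.

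Within the domains, the sites were richer in CpG than the gaps. In 87 of the 99 domains with 2 or more sites the sites had the higher CpG density, and in 12 the gaps did. The medians were 4.95 CpG per 100 bp in sites and 1.69 in gaps, and the median of the differences was 2.16. At Foxc1 the sites had 7.74 and the gaps 0.32 CpG per 100 bp. At Tbx15 the values were 2.64 and 1.13. The largest difference the other way was at Bmpr1a, with 10.3 CpG per 100 bp in sites and 20 in a gap that made up less than 2% of the span, followed by Nr2f2 with 7.24 in sites and 12.6 in gaps. Over all domains 50.1% of the site bases and 25.9% of the gap bases were in islands, and 88.5% of the bases of the islands that touched a domain lay inside it. The 1000 bp on either side of a domain had a median of 1.35 CpG per 100 bp, and 94 of the 105 domains were denser than their flanks. The domains had a median density of 4.74 CpG per 100 bp and a median GC content of 52.2%, against 7.44 and 59.5% in regions of 1000 to under 2000 bp.

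**Figure D5:**
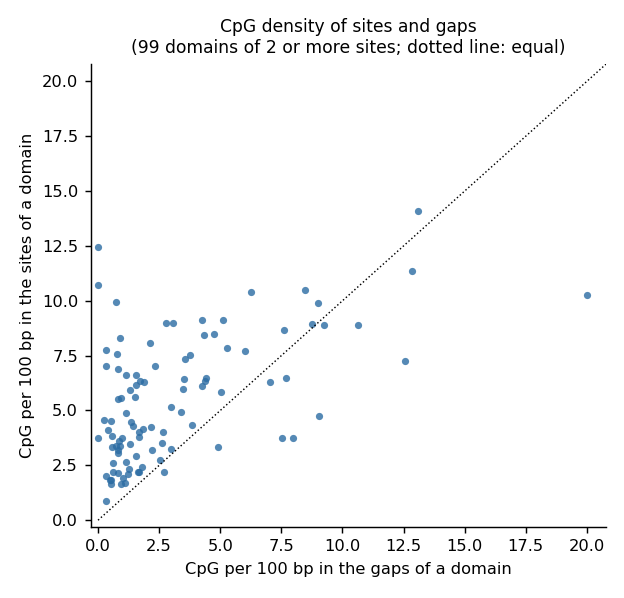
CpG per 100 bp in the sites against the gaps of the 99 domains with 2 or more sites, where a point is a domain and the dotted line marks equal density. Above the line lie 87 domains.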

How the data were processed

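For ChIP-seq, the authors precipitated tagged ASH2L from iMEF cells, with HA-directed antibodies per the study's text (the labels name Ash2l as the antibody). Per the study's methods, reads were trimmed with Trim Galore and aligned to mm10 with BWA, alignments were merged with Picard, and narrow peaks were identified with MACS. Versions are not given in the sources used here. The deposited values used here are positions (start and end) of sites pooled over all samples, with no count or score, so depth per sample and replicates could not be examined, and no test was made. Starts are counted from 0 in the list and printed from 1.

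Sites were joined at gaps of at most 1000 bp. TSSs came from GENCODE mouse release 21 and sequence from RefSeq GRCm38.p6, the same build. CpG islands were computed from this sequence, and the study's island set was not used here. A domain was named after genes with a TSS inside, else after the overlapping gene or the nearest protein-coding TSS. Named were the 10 widest domains, the 5 with the most sites (with ties) and the 5 with the most island bases, all without a protein-coding TSS or an island, those nearest the limit of 2000 bp and genes in the lists. Some loci are not reported here. Other domains named as examples were chosen after their values were seen. The members and the lists were chosen with earlier results of these data known, and name patterns in the lists were corrected after the positions were seen. Alternatives changed the gap, the span, the TSSs and the islands. Python 3.11.15, NumPy 2.4.6, pandas 2.3.3, SciPy 1.17.1, pysam 0.24.0 and matplotlib 3.10.9 were used. The functions were tested on simulated data.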

Additional observations from a re-analysis of the deposited data

Results flagged for a closer look

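A signal appeared in data outside the comparisons of the report. Of the 16 sites outside the assembled nuclear chromosomes, 3 on the mitochondrial sequence joined under the same rule into a region that spanned 2348 bp (positions 165 to 2512). No other joined region outside the nuclear chromosomes reached 2000 bp. Its origin was not tested.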

How the results depend on the processing

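In all, 11 alternative settings gave 53 values for 8 results, of which 32 stayed within 1.5 times the count or inside the 95% interval of the reported share or median, and 21 did not. Counts, shares and lengths cannot change sign. The difference in CpG density between sites and gaps could, and it stayed positive under each setting that gave a value. The number of domains was 39 for single sites of 2000 bp or more without joining, 181 from a span of 1500 bp and 58 from 3000 bp, with median spans of 2626, 2231 and 4660.5 bp. The share with a protein-coding TSS was 86.2% from 3000 bp, 82.9% with the TSSs of all genes, 81.0% with TSSs within 1 kb of the span and 52.4% with the start of each gene alone. The share with an island was 97.3% at gaps of at most 500 bp, 97.4% for single sites, 96.6% from 3000 bp and 80.0% with islands of at least 500 bp, over 55% GC and a ratio over 0.65. The median island length was 1286 bp from 1500 bp, 1873 bp from 3000 bp and 1258 bp with those stricter islands. The covered share of the span was 88.9% at gaps of at most 500 bp, 55.9% at 2000 bp and 100% for single sites. The share with a listed transcription factor gene was 23.2% from 1500 bp. Each follows from which regions, TSSs or islands the setting admits. The difference in CpG density between sites and gaps has no value for single sites. No paired analysis was possible because the list is pooled over all samples. No replicate could be left out for the same reason, the list gives no depth per sample, and with no signal per site a stricter peak threshold was not tried.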

Other observations

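The domains were on all 19 autosomes and not on chromosome X or Y. Chromosome X had 114 sites in 112 joined regions, the widest of 1495 bp, and chromosome Y had 1 site. Domains were 1.88% of all joined regions outside the HoxA and HoxD clusters, so a count of 0 on these chromosomes is near that share. Chromosome 3 had the most domains, 13 of its 354 joined regions (3.67%), 3 of them at Tbx15 and 2 at Mecom, and chromosome 18 had 6 of 161 (3.73%). The other autosomes had between 1.01% (chromosome 9) and 2.30% (chromosome 1) of their joined regions as domains.

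Other ASH2L sites around the domains varied in number. Sites outside domains and farther than 3 kb from any TSS had a density of 0.851 per Mb over the whole list and a median of 1.0 per Mb within 5 Mb of a domain. In 6 domains the density exceeded 2.5 per Mb, at Thap2 and Zfc3h1 (7.5), near Cpm (6.8) and at Hmga2 (4.5) on chromosome 10, and at Nipbl (4.0), Rictor (3.3) and Trps1 (3.0) on chromosome 15. The part of this density in the domains there was not tested.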
